A study of Mus musculus with 5 samples.

Results

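DNA replication genes are described here across a time course of Fanchinoline in the MutuDC line, mouse dendritic cells grown in culture. The 44 genes were chosen by name from textbook knowledge: the helicase and its loaders, the polymerases, the clamp and its loader, the single-strand binding and ligation factors, nucleotide supply, chromatin assembly and the regulators of entry into S phase. Earlier results of these data were known when the choice was made. All 44 were found among the 53700 gene rows of the count table, 1 row per symbol, and all 44 were among the 8846 genes with at least 10 CPM (counts scaled to library size) in at least 1 library, which are called the compared genes below. The 4 treated libraries are MutuDC cells after 2, 6, 12 and 24 h with Fanchinoline, and the fifth is a vehicle control, taken as 0 h. The series' design text calls the control cells untreated, and no source used here states the dose. There is 1 library per time point, so no difference between 2 time points was checked by replicates, and treatment and hours in culture cannot be told apart. As background that the labels do not state, MutuDC lines came from spleen tumours of mice that express the viral large T antigen in dendritic cells; large T binds the retinoblastoma proteins, which otherwise hold E2F factors in check.

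DNA replication starts when the origin recognition complex, with CDC6 and CDT1, loads the ring-shaped MCM2-7 helicase onto origins in G1 phase. Kinases then recruit CDC45 and the GINS complex, the helicase unwinds DNA, polymerase alpha with primase lays down primers, and polymerases delta and epsilon copy the strands on the PCNA clamp, which the RFC complex loads. Most of these genes are known targets of E2F factors, so in dividing cells their transcripts are highest around the start of S phase. A mean over a cell population therefore follows both the share of cells near S phase and the RNA per cell, which cannot be told apart in these bulk libraries.

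Promoter sequences are shown first, so that E2F-type motifs can be seen in genes with different time courses. RefSeq's promoter table (GRCm38.p6, 250 bases before to 50 after each start) held 36 of the 44 genes with 43 promoters; Ccne2, Gins1, Gins2, Gins4, Mcm4, Pole, Prim2 and Rfc2 were not among them. The motifs searched were TTTCCCGC, TTTGGCGC, TTTCGCGC and TTTGCCGC on both strands, with overlapping matches counted separately. At least 1 match stood in 14 of the 43 promoters (32.6%), against 744 of all 32851 promoters (2.26%). The CCAAT box, searched on both strands, stood in 60.5% of them, against 37.4% of all promoters. A match is a string of letters and not a measured binding site. The windows below come from 6 genes whose levels over time differ, as described below. Each has 80 bases and lies upstream of the start given in RefSeq's promoter table. By GENCODE's gene coordinates, the Cdc6 and Gins3 windows lie after the first base of the gene, and the Orc1 window spans it. Capitals mark the matches.
Mcm5: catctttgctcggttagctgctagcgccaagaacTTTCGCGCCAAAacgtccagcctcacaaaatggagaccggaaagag
Mcm6: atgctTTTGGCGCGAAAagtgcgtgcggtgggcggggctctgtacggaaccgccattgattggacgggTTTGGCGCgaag
Pola1: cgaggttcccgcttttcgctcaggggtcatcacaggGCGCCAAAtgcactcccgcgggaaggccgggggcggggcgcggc
Cdc6: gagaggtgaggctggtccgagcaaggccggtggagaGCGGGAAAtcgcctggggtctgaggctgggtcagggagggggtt
Orc1: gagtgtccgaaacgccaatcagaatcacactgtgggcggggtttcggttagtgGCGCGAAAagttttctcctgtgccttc
Gins3: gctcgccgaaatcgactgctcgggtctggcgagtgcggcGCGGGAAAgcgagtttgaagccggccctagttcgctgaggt
They lie at chr8:75109322-75109401 (plus strand, Mcm5), chr1:128359741-128359820 (minus, Mcm6), chrX:93632250-93632329 (minus, Pola1), chr11:98907977-98908056 (plus, Cdc6), chr4:108579374-108579453 (plus, Orc1) and chr8:95633479-95633558 (plus, Gins3). Mcm5 has 2 overlapping matches and Mcm6 has 3, of which 2 overlap. The median log2 ratio of 24 h over vehicle was 0.31 for the 14 genes with a match in a listed promoter and 0.20 for the 22 genes without one, with ranges of -0.15 to 1.02 and -0.33 to 0.92. The median ratio of 24 h over 2 h was 0.12 with a match and 0.19 without one. All of these ratios are as measured, without adjustment for transcript length or GC content.

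Library totals ran from 33568526 to 42854511 counts, and the 44 genes had 382 to 32979 counts each in a library. All 10 markers of type 1 conventional dendritic cells reached 10 CPM, with a summed level of 7240 (24 h) to 10500 CPM (2 h) over the libraries. Single markers differed. Cd8a was at 13.7 CPM at 24 h against 32.5 CPM in vehicle, and Batf3 at 43.4 against 71.7 CPM. H2-Ab1, Flt3, Irf8 and Xcr1 were also lower at 24 h than in vehicle, and Wdfy4, Cadm1, Clec9a and Itgax were higher. These levels were not adjusted for transcript length or GC content. All 4 T cell and all 4 neutrophil markers were at 0 in every library. Of 4 macrophage markers, which summed to 86.1 to 144 CPM in treated libraries and 78.4 CPM in vehicle, Csf1r was at 137 CPM at 24 h against 72.3 CPM in vehicle, and Mertk was at 0; its part in the results was not tested. B cell, NK cell and fibroblast markers summed to at most 0.55 CPM in any library, and epithelial ones to 7.39 to 10.5 CPM. The vehicle library stood apart in its balance of long and short transcripts and in the share of mitochondrial counts, which was 1.48% to 1.78% in treated libraries and 2.58% in vehicle. Over vehicle, the median log2 ratio of the 442 compared genes with the longest transcripts was 0.46 to 0.61 at the 4 times, and that of the 442 with the shortest -0.39 to -0.31. Ratios over vehicle are therefore also given adjusted for transcript length and GC content, which is called length-adjusted. Each interval is an exact 95% one (Clopper-Pearson) for the ratio of a pair of scaled counts. Such an interval treats each count as an independent read, so it covers counting error and nothing else. No source used here says how the counts were derived from the alignments.

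As a group, the replication genes stood slightly above vehicle, by more at 12 and 24 h than at 2 h. Their median log2 ratio to vehicle at 2, 6, 12 and 24 h was 0.06, 0.15, 0.22 and 0.23, while the median of all 8846 compared genes was 0.03, 0.04, 0.02 and 0.00. Of the 44 genes, 33 were above vehicle at 24 h (75%, against 50.0% of all compared genes), and 25 were above at 2 h (56.8%, against 53.1%). Beyond counting error, 29 genes stood above and 8 below vehicle at 24 h (65.9% and 18.2%, against 41.6% and 41.0% of all compared genes). Length-adjusted, the medians at the 4 times were 0.11, 0.18, 0.29 and 0.25. The 24 h library held the highest level of 16 of the 44 genes (36.4%, against 21.8% of all compared genes), and the 12 h library that of 13 (29.5%, against 14.2%). Vehicle held the lowest level of 24 (54.5%, against 37.6%), and the 2 h library that of 13 (29.5%, against 16.5%).

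**Figure D1:**
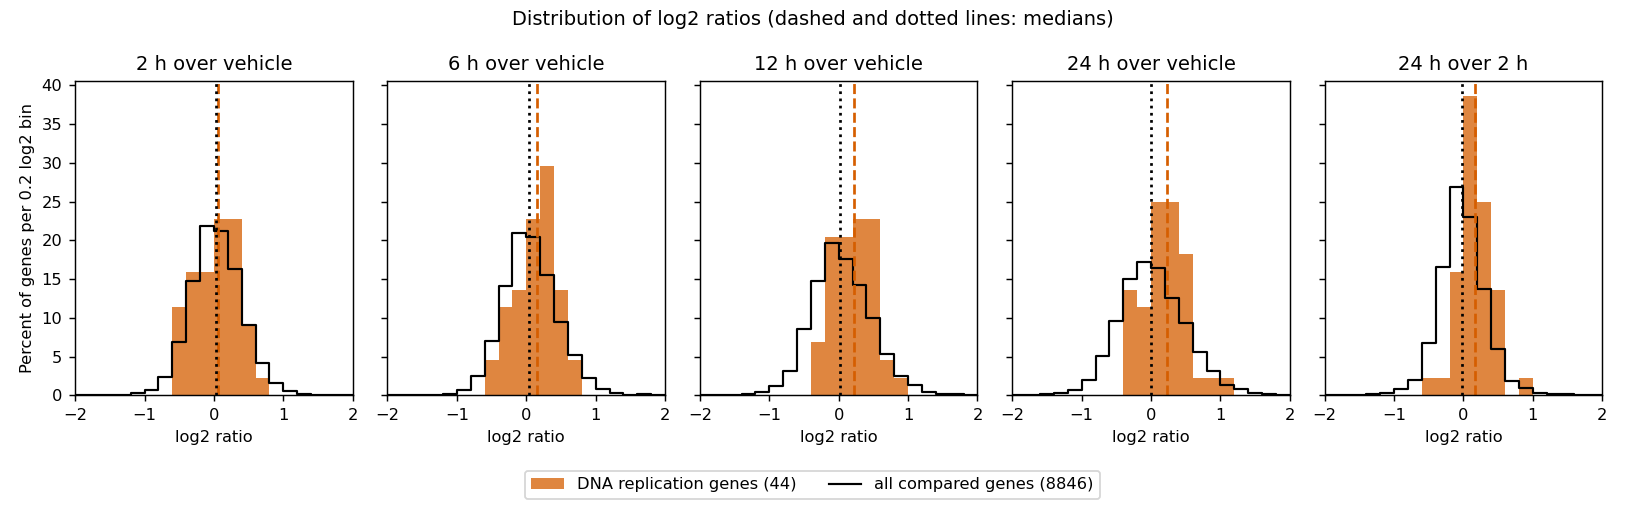
Distribution of log2 ratios of the 44 DNA replication genes (filled bars) and of all 8846 compared genes (black outline) in 5 comparisons of libraries; the vertical axis is the percent of genes per bin, and the dashed and dotted lines are the medians of the replication genes and of all compared genes. The replication genes' median lies at 0.06 at 2 h and at 0.23 at 24 h over vehicle, and at 0.16 for 24 h over 2 h.

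Few of these differences were large. A gene was called higher or lower where its ratio was at least 1.5-fold and its interval excluded a ratio of 1, a rule that compares libraries and not conditions. At 24 h 3 of the 44 genes were called higher, Pola1, Pole and Rfc1, and 0 lower, while 12.2% of all compared genes were called higher and 8.87% lower. At 2 h Pole alone was called higher (7.2% of all compared genes higher, 3.62% lower), at 6 h Pola1 and Pole (9.73% and 3.83%), and at 12 h Pola1, Pole and Rfc1 (10.6% and 5.55%). As measured, the share of replication genes called higher at 24 h, 6.82%, thus lay below that of all compared genes. Length-adjusted, the share lay above it, with 13.6% against 5.78% at 24 h and 9.09% against 4.56% at 12 h. With libraries scaled by total counts, 7 of the 44 were called higher and 0 lower at 24 h, with 16.3% of all compared genes higher and 5.3% lower. At 2-fold, Pola1 alone was called at 24 h, where 2.86% of all compared genes were called higher and 1.23% lower. None of the 44 was called at 2-fold at 2, 6 or 12 h, with 0.904%, 1.57% and 2.33% of all compared genes higher. Length-adjusted, 6 genes were called higher at 24 h, Pola1, Rfc1, Pcna, Rrm2, Ccne2 and Rpa2, with 5.78% of all compared genes higher and 5.76% lower. At 12 h 4 were, Pola1, Pcna, Rrm2 and Ccne2 (4.56% higher, 3.53% lower), and at 2 and 6 h none was called higher and Gins2 was called lower (2.11% higher and 1.34% lower at 2 h, 3.21% and 1.65% at 6 h).

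**Figure D2:**
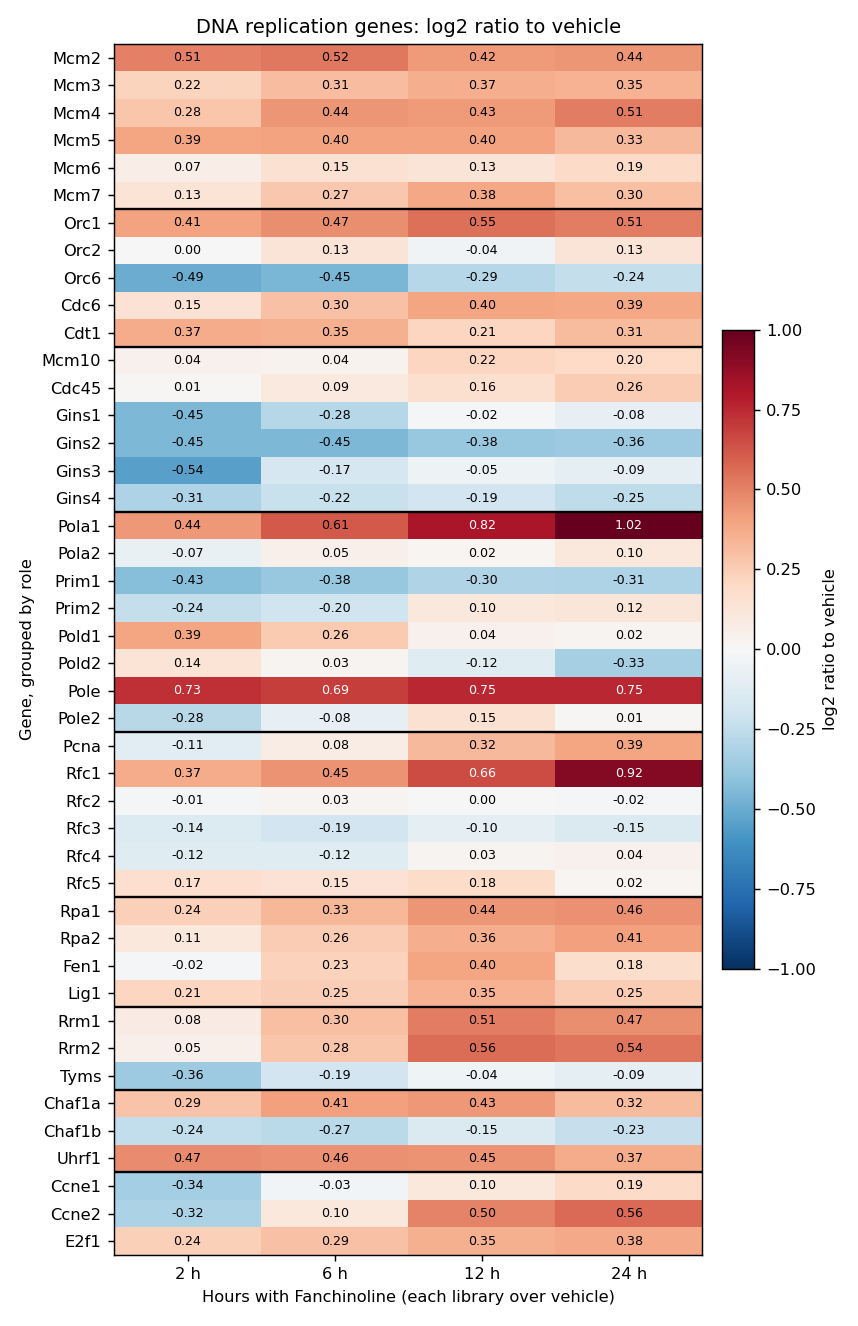
Log2 ratio to vehicle of the 44 DNA replication genes (rows, grouped by role and separated by lines) after 2, 6, 12 and 24 h with Fanchinoline (columns), with each value printed in its cell. The MCM2-7 rows at the top are above 0 in all 4 columns, the 4 GINS rows are below 0 in all 4 (length-adjusted, Gins1 and Gins4 are at 0.26 and 0.03 at 24 h), and Pola1 at 24 h is the highest value at 1.02.

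The 6 genes of the MCM2-7 helicase, the motor that opens DNA at the fork, all stood above vehicle in each of the 4 treated libraries. Their log2 ratios ran from 0.07 to 0.51 at 2 h and from 0.19 to 0.51 at 24 h, and none of the 6 intervals included 0 at either time. None reached 1.5-fold. Mcm2 was at 254 CPM in vehicle and at 361, 366, 341 and 345 CPM after 2, 6, 12 and 24 h. Mcm5 was at 546 CPM in vehicle and 716, 719, 721 and 684 CPM at 2, 6, 12 and 24 h. For both genes the vehicle library was the lowest and the 4 treated libraries lay close to each other. The ratio of 24 h over 2 h was -0.07 for Mcm2 (-0.10 to -0.03) and -0.07 for Mcm5 (-0.09 to -0.04). Mcm4 stood at 0.51 over vehicle at 24 h (0.46 to 0.56) and at 0.28 at 2 h, and Mcm6, the nearest to vehicle of the 6, at 0.19 and 0.07. Length-adjusted, the 6 genes stayed above vehicle at all times, with 0.20 to 0.44 at 24 h. Per length, on the TPM scale computed here from the counts and averaged over the 5 libraries, Mcm3 had the highest level with 483 TPM, followed by Mcm5 with 405, Mcm6 with 265, Mcm7 with 243, Mcm2 with 200 and Mcm4 with 98.6 TPM.

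The genes that load the helicase differed among themselves. Cdt1, which brings MCM2-7 to origins, was at 127 CPM in vehicle and at 164, 162, 147 and 157 CPM after 2, 6, 12 and 24 h. Cdc6, the ATPase that closes the loading complex, was at 85.7 CPM in vehicle and at 95, 105, 113 and 112 CPM after 2, 6, 12 and 24 h. As measured, Cdt1 was thus highest at 2 h, with a close level at 6 h, and Cdc6 at 12 h, with a close level at 24 h. Length-adjusted, Cdt1 was at 0.37, 0.37, 0.33 and 0.49 over vehicle at 2, 6, 12 and 24 h, so highest at 24 h. Cdc6 was then at 0.24, 0.38, 0.46 and 0.46. Their log2 ratios at 24 h were 0.31 (0.26 to 0.37) for Cdt1 and 0.39 (0.32 to 0.46) for Cdc6. Orc1, the origin recognition subunit that is made anew in each cycle, was low, with 17.0 CPM at 24 h against 11.9 CPM in vehicle (0.51, 0.33 to 0.70). Orc2 was at 0.13 and Orc6 at -0.24 at 24 h, and Orc6 was lowest at 2 h with -0.49 (-0.56 to -0.42). Orc6 has a short transcript of 1287 bases, and length-adjusted it was at -0.07 at 2 h and 0.09 at 24 h. Orc2 shares 29.8% of its exon bases with Nif3l1 on the opposite strand, and without strand their reads cannot be told apart.

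All 4 genes of the GINS complex, which ties CDC45 to the helicase, stood below vehicle at all 4 times as measured, except that Gins1 and Gins3 were at 0.02 at 24 h, and Gins1 at 0.00 at 12 h, when libraries were scaled by total counts, which adds 0.10 to every ratio of 24 h over vehicle. At 2 h the log2 ratios were -0.45 for Gins1 (-0.65 to -0.26), -0.45 for Gins2 (-0.51 to -0.38), -0.54 for Gins3 (-0.68 to -0.40) and -0.31 for Gins4 (-0.39 to -0.23). Length-adjusted, Gins1 (-0.05) and Gins4 (-0.07) were near vehicle at 2 h, while Gins2 (-0.68) and Gins3 (-0.43) stayed below it. At 24 h Gins1 (-0.08) and Gins3 (-0.09) no longer differed from vehicle beyond counting error, while Gins2 (-0.36) and Gins4 (-0.25) did. Gins3 was at 28.6 CPM in vehicle and at 19.6, 25.4, 27.5 and 26.9 CPM after 2, 6, 12 and 24 h, so the 2 h library held its lowest level. The partners of GINS at the helicase were above 0 at 24 h: Cdc45 at 0.26 (0.20 to 0.31) and Mcm10, a factor for origin firing, at 0.20, which was -0.08 when length-adjusted. Length-adjusted, Gins1, with 1087 bases, was at 0.26 and Gins4, with 1349 bases, at 0.03 at 24 h, and Gins3 was at 0.00. Gins1 thus lay above vehicle after adjustment, and Gins4 and Gins3 lay near it. Gins2 was then at -0.53 and was called lower at 2 h (-0.68) and 6 h (-0.66). Its exons share 67.3% of their bases with Gse1 on the opposite strand, and the length used, 3900 bases, includes that stretch.

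Catalytic subunits of polymerases alpha and epsilon stood above their partner subunits as measured. Pola1, the catalytic subunit of polymerase alpha (chromosome X, 93304767 to 93632155), was at 25.1 CPM in vehicle and at 33.9, 38.4, 44.2 and 50.9 CPM after 2, 6, 12 and 24 h. Each library thus held more than the one before it. The log2 ratio of 24 h over vehicle was 1.02 (0.91 to 1.14) and that of 24 h over 2 h was 0.58 (0.48 to 0.69). Of its partners in the primase complex, Pola2 stood at 0.10, Prim2 at 0.12 and Prim1, which makes the RNA primer, at -0.31 (-0.39 to -0.23) at 24 h. Length-adjusted, Pola1 was at 0.73 and still called, Pola2 at 0.17, Prim2 at 0.31 and Prim1 at -0.02.

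Pole, the catalytic subunit of polymerase epsilon (chromosome 5, 110286306 to 110337474), was at 77.5 CPM in vehicle and at 129, 125, 131 and 131 CPM after 2, 6, 12 and 24 h. Vehicle was its lowest library, and the 4 treated ones differed little, with 0.02 for 24 h over 2 h (-0.03 to 0.08). Its transcript of 7163 bases is the longest of the 44, and its log2 ratio of 0.75 at 24 h (0.69 to 0.82) was 0.22 when length-adjusted and no longer called. Pole2, its second subunit, with 1706 bases, was at 0.01 at 24 h and at 0.27 length-adjusted. The large and small subunit of polymerase epsilon were thus apart as measured and close when length-adjusted. Both polymerase delta genes of the 44 were lower at 24 h than at 2 h: Pold1, the catalytic subunit, was at 128 CPM at 24 h against 165 CPM at 2 h (-0.37, -0.42 to -0.32), and Pold2 at 55.7 CPM at 24 h against 77.3 CPM at 2 h (-0.47, -0.55 to -0.39). Both are rich in GC, with 60.7% and 58.7%, and length-adjusted these ratios were -0.16 and -0.30. The other subunit genes, Pold3 and Pold4, stood at 0.17 (0.08 to 0.25) and -0.10 (-0.21 to 0.02) for 24 h over 2 h.

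**Figure D3:**
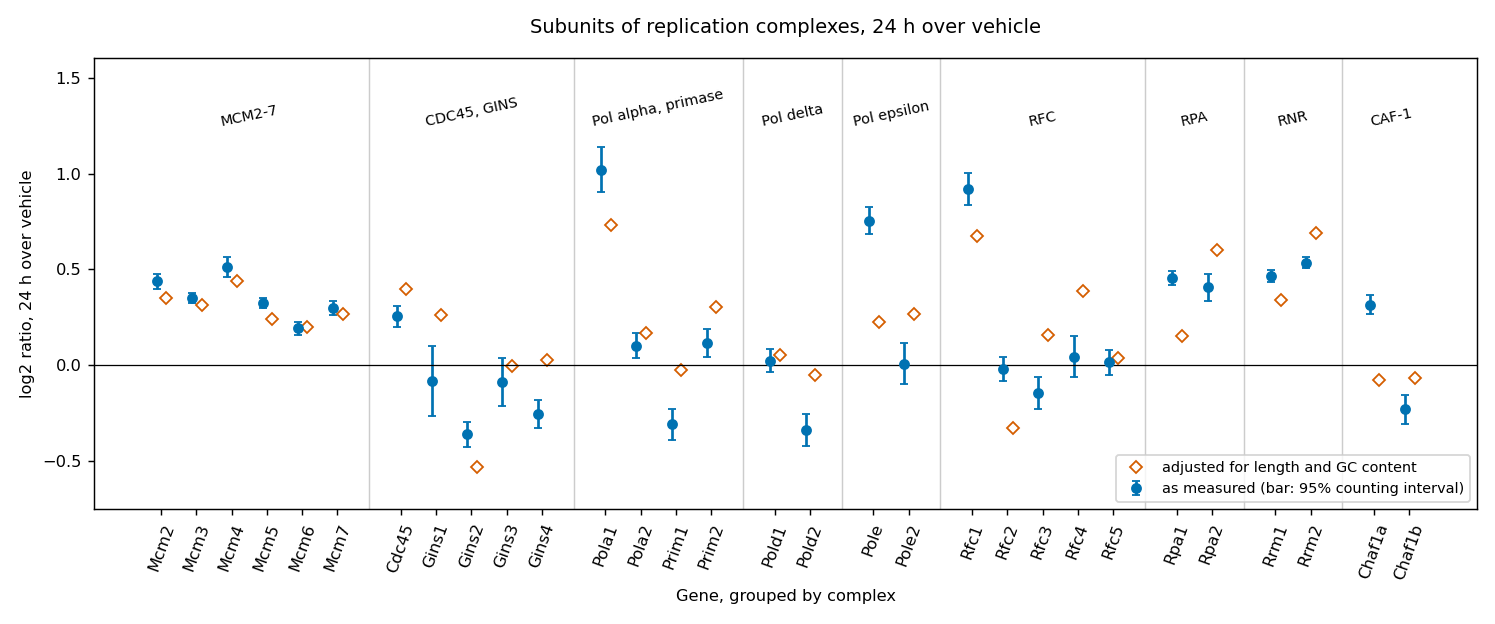
Log2 ratio of 24 h over vehicle for subunits of replication complexes (horizontal axis, grouped by complex), as measured (filled circles, bars are 95% counting intervals) and adjusted for transcript length and GC content (open diamonds). Pola1 (1.02) and Rfc1 (0.92) lie above the other subunits of their complexes in both values, with Rfc1 at 0.67 and Rfc4 at 0.39 when adjusted, while Pole and Pole2 (0.75 and 0.01) come together when adjusted (0.22 and 0.27).

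The clamp and the large subunit of its loader were highest in the 24 h library. Pcna, the sliding clamp, was at 352 CPM in vehicle and at 326.5, 371, 440 and 462 CPM after 2, 6, 12 and 24 h. It was thus lowest at 2 h, with a log2 ratio to vehicle of -0.11, which was 0.27 when length-adjusted. The log2 ratio was 0.39 for 24 h over vehicle (0.36 to 0.43), 0.68 length-adjusted, and 0.50 for 24 h over 2 h (0.47 to 0.53). A copy, Pcna-ps2, shares sequence with it and had 201 counts at 24 h and 112 in vehicle, while Pcna had 19721 at 24 h and 11533 in vehicle. Rfc1, the large subunit of the clamp loader (chromosome 5, 65261850 to 65335670), was at 51.0 CPM in vehicle and at 66.1, 69.8, 80.4 and 96.6 CPM after 2, 6, 12 and 24 h, higher in each library than in the one before. Its log2 ratio was 0.92 at 24 h (0.84 to 1; 0.67 length-adjusted), whereas the 4 small subunits Rfc2 to Rfc5 lay between -0.15 and 0.04. The intervals of these 4 do not overlap that of Rfc1. Length-adjusted, the small subunits ran from -0.33 (Rfc2) to 0.39 (Rfc4), still below Rfc1. Rfc2, Rfc4 and Rfc5 share 15.1%, 12.7% and 10.7% of their exon bases with Lat2, Eif4a2 and Wsb2 on the opposite strand.

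Single-strand binding and ligation genes were all 4 above vehicle at 24 h. Rpa1 and Rpa2, of the complex that coats unwound DNA, stood at 0.46 (0.42 to 0.49) and 0.41 (0.34 to 0.48). Lig1, the ligase that seals Okazaki fragments, stood at 0.25 and Fen1, the nuclease that trims their flaps, at 0.18. Length-adjusted, Rpa1, with 5077 bases, was at 0.15 and Rpa2, with 1813 bases, at 0.60, so their order turned. Fen1 was highest at 12 h with 216.5 CPM, against 164.5 CPM in vehicle, but 78.8% of its exon bases lie opposite the antisense gene Gm10143.

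In nucleotide supply, both ribonucleotide reductase genes stood above vehicle at 24 h and thymidylate synthase did not. Rrm2, the small subunit of the reductase and the one tied to S phase, was at 476 CPM in vehicle and at 492, 578, 700 and 689 CPM after 2, 6, 12 and 24 h. Rrm1, the large subunit, was at 394 CPM in vehicle and 417, 486, 562 and 544 CPM at 2, 6, 12 and 24 h. As measured, both were near vehicle at 2 h and well above it from 12 h. Their intervals at 24 h were 0.51 to 0.56 for Rrm2 (0.54) and 0.44 to 0.50 for Rrm1 (0.47). Length-adjusted, Rrm2 was already at 0.28 at 2 h, and at 24 h it was at 0.69 and was called. Rrm1 was then at 0.10 at 2 h and at 0.34 at 24 h. Tyms, which makes thymidylate, was at 98.7 CPM in vehicle and at 76.7, 86.4, 95.8 and 92.9 CPM after 2, 6, 12 and 24 h. It was thus lowest at 2 h, with a log2 ratio of -0.36 (-0.44 to -0.29) and -0.34 length-adjusted, and close to vehicle at 24 h (-0.09, -0.15 to -0.02).

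Among chromatin genes, Uhrf1, which guides maintenance methylation of DNA behind the fork, was at 242 CPM in vehicle and at 335.5, 332, 330 and 313 CPM after 2, 6, 12 and 24 h. Vehicle was its lowest library, as for Mcm2 and Mcm5, and 2 h its highest. Its log2 ratio was 0.47 at 2 h (0.43 to 0.51; 0.27 length-adjusted) and 0.37 at 24 h (0.33 to 0.41; 0.25 length-adjusted). The subunits of CAF-1, which deposits new histones, lay on opposite sides of vehicle at 24 h, with Chaf1a at 0.32 and Chaf1b at -0.23. Length-adjusted they were at -0.07 and -0.07. Chaf1a shares 52.5% of its exon bases with Ubxn6 on the opposite strand.

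Cyclin E genes, whose products drive CDK2 at the start of S phase, had their lowest levels in the 2 h library. Ccne2 was at 25.5 CPM in vehicle and at 20.5, 27.5, 36.1 and 37.7 CPM after 2, 6, 12 and 24 h. Ccne1 was at 35.4 CPM in vehicle and at 28.0, 34.8, 38.0 and 40.5 CPM after 2, 6, 12 and 24 h. For both the 24 h library was the highest. At 2 h over vehicle the log2 ratios were -0.32 for Ccne2 and -0.34 for Ccne1, and length-adjusted 0.13 and -0.27, so that Ccne2 no longer stood below vehicle. The ratio of 24 h over 2 h was 0.88 for Ccne2 (0.76 to 1.01), the only gene of the 44 called in that comparison, where 3.98% of all compared genes were called higher and 3.8% lower. Length-adjusted, Ccne2 (0.53) was not called there and Ccne1 (0.61) was (3.04% of all compared genes higher, 3.29% lower). Ccne2, with a GC content of 36.3%, is the poorest in GC of the 44, and 17.4% of its exon bases lie opposite Ints8. E2f1, the transcription factor for much of this group, was at 33.6 CPM in vehicle and at 39.8, 41.1, 43.0 and 43.7 CPM after 2, 6, 12 and 24 h, or 0.38 for 24 h over vehicle (0.27 to 0.49).

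**Figure D4:**
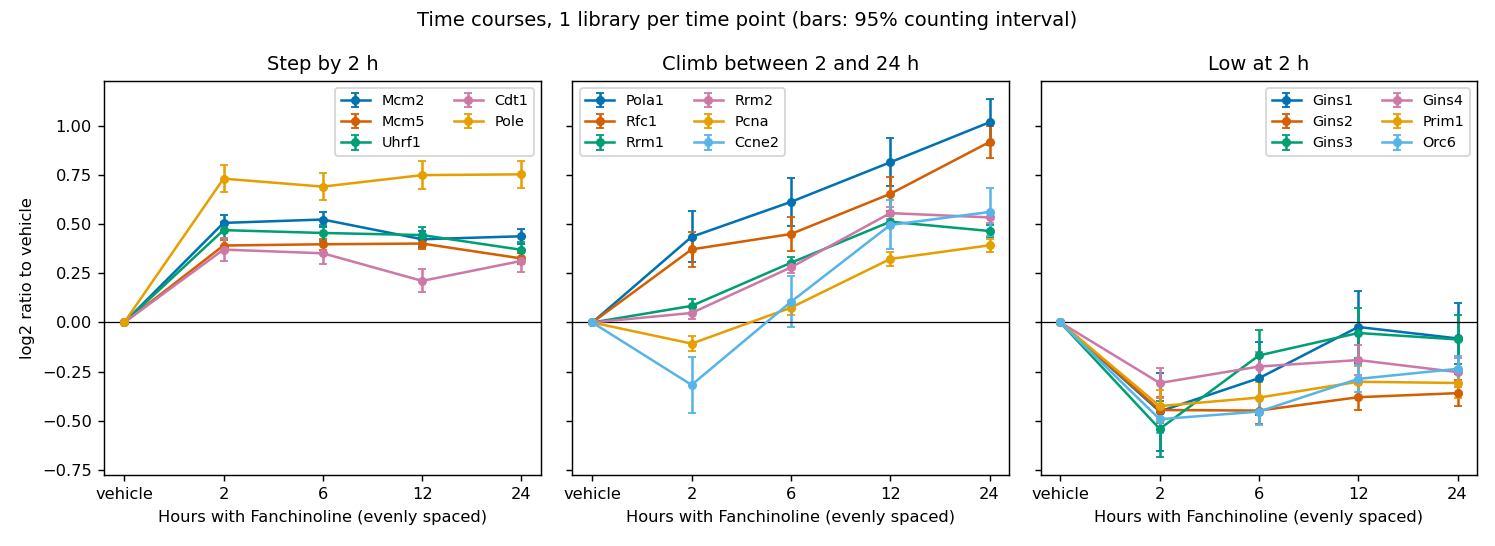
Log2 ratio to vehicle (vertical axis) in the vehicle, 2, 6, 12 and 24 h libraries (evenly spaced on the horizontal axis) for genes that were placed in 3 panels after their values were seen; bars are 95% counting intervals. As measured, Mcm2, Mcm5, Uhrf1, Cdt1 and Pole stand at or near their highest value by 2 h, and Pola1 and Rfc1 reach 1.02 and 0.92 at 24 h. The 4 GINS genes, Prim1 and Orc6 are below 0 at 2 h. Length-adjusted, Gins2 (-0.68) and Gins3 (-0.43) stay low at 2 h, while Gins1 (-0.05), Gins4 (-0.07), Prim1 (-0.03) and Orc6 (-0.07) are near vehicle. Cdt1 is then highest at 24 h (0.49).

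The 24 h and 2 h libraries, both treated, were also compared directly, which leaves the vehicle library out. The median log2 ratio of the 44 genes was 0.16, against -0.03 for all compared genes, and 35 of the 44 were above 0 (79.5%, against 46.3%). After Ccne2, the largest ratios belonged to Pola1 (0.58), Rfc1 (0.55), Ccne1 (0.53), Pcna (0.50), Rrm2 (0.49), Gins3 (0.46) and Rrm1 (0.38). The lowest were Pold2 (-0.47), Pold1 (-0.37), Rfc5 (-0.15) and Uhrf1 (-0.10). Length-adjusted, the median was 0.15, with 35 genes above 0. Spearman's rho of this ratio with GC content over the 44 genes was -0.63, and -0.29 after adjustment. These 44 values share the same pair of libraries and are a description.

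Transcript length moved with the ratios over vehicle. Over the 44 genes, Spearman's rho between transcript length and the log2 ratio of 24 h over vehicle was 0.5, and -0.11 after adjustment. The 11 longest, with 3586 to 7163 bases, had a median log2 ratio of 0.46, and the 11 shortest, with 1087 to 1922 bases, one of -0.15. Length-adjusted, these medians were 0.22 and 0.16. Between 24 h and 2 h, the medians of the same genes were 0.16 and 0.16.

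**Figure D5:**
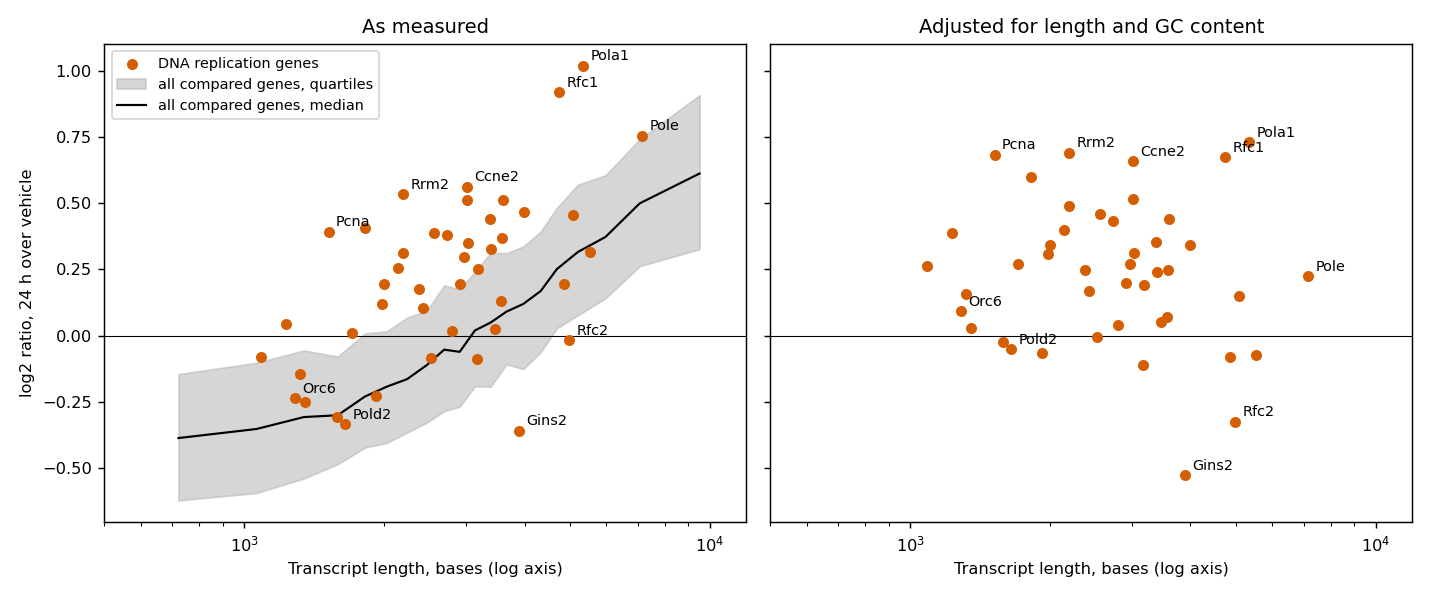
Log2 ratio of 24 h over vehicle (vertical axis) against transcript length (log axis) for the 44 DNA replication genes (points), as measured on the left, with the median and quartiles of all compared genes in bins of length, and adjusted for length and GC content on the right. Long genes stand higher as measured; Pola1, Rfc1, Pcna, Rrm2 and Ccne2 lie above the band for their length, and Gins2 and Rfc2 below it.

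A slope over all 5 libraries on log2(hours + 1) was fitted for each gene and tested by quasi-likelihood in edgeR, with an error term that is the scatter of the libraries around a straight line and holds no replicate spread. With Benjamini-Hochberg adjustment over 13877 genes, 4 of the 44 genes rose: Pola1 (slope 0.21 per unit, adjusted p = 0.0179), Rfc1 (0.19, adjusted p = 0.0208), Rrm2 (0.14, adjusted p = 0.0392) and Rrm1 (0.12, adjusted p = 0.046). None of the 44 fell at this threshold of 0.05, nor at an unadjusted p under 0.05, nor by DESeq2. The slopes, here and below, were not adjusted for transcript length or GC content. The transcripts of Pola1, Rfc1, Rrm2 and Rrm1 have 5346, 4751, 2193 and 3997 bases. The part of length and GC content in the slopes was not tested. Of all genes tested, 5.16% rose and 3.87% fell, against 9.09% and 0.0% of the replication genes. The number of calls depended on single libraries, for all genes as for these. Without 12 h none of the 44 and 0.0% of all genes rose, without 24 h none of the 44 and 0.278%, without 6 h 2 of the 44 and 1.54%, and without 2 h 9 of the 44 and 9.31%. Over the 4 treated libraries alone, 12 of the 44 rose and 2 fell, with 8.01% and 7.67% of all genes tested in each direction. Those that rose were Ccne2 (adjusted p = 0.00472), Pola1, Pcna, Rfc1, Rrm2, Ccne1, Rrm1, Prim2, Rpa2, Gins3, Tyms and Orc6, and those that fell were Pold2 (adjusted p = 0.0126) and Pold1 (adjusted p = 0.0235), all by edgeR's test.

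Other genes of the pathway were taken from 10 lists, of which 98 of 100 genes were compared. At 24 h 16 of the 98 were called higher (16.3%, against 12.2% of all compared genes) and 6 lower (6.12%, against 8.87%), with a median log2 ratio of 0.09. Of 13 compared genes of nucleotide supply beyond the reductase and Tyms, none was called, with a median of -0.09. In replication-coupled repair 5 of 10 genes were called higher, the homologous recombination genes Brca1 (0.95) and Brca2 (0.65), the Fanconi anemia genes Fancd2 (0.86) and Fanci (0.76), and the mismatch repair gene Msh6 (0.62). All 10 stood above vehicle, with a median of 0.55. The 5 called genes have transcripts of 4251 to 10724 bases, and length-adjusted none was called. Around origin firing, Ticrr (0.85), which brings TOPBP1 to origins, and Wdhd1 (0.85), which links polymerase alpha to the helicase, were called higher. Atad5, which unloads PCNA, was at 1.3 (39.9 CPM at 24 h against 16.2 CPM in vehicle), Phip at 1.06, the fork protector Clspn at 0.61 and the methyltransferase Dnmt1 at 0.69. Among E2F and pocket protein genes, E2f2 (0.73), E2f7 (0.72) and Rbl1 (0.65) were called higher and E2f4 (-0.64) lower. Inhibitors of cyclin-dependent kinases were also called higher, Cdkn1a at 0.96 (45.5 CPM at 24 h against 23.4 CPM in vehicle) and Cdkn2d at 0.75. Called lower were Orc4 (-0.62), Hmga1 (-0.62), the RNase H2 subunit Rnaseh2c (-0.82), the ATR partner Atrip (-0.87) and the histone chaperone Asf1a (-0.86).

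Length-adjusted, 4 of the 98 genes were called higher and 4 lower, with 5.78% of all compared genes higher and 5.76% lower. Those higher were Wdhd1 (0.68), Atad5 (0.82), Cdkn1a (1.09) and Cdkn2d (1.01), and those lower were Orc4 (-0.68), Atrip (-0.83), Asf1a (-0.64) and Cdk6 (-0.80). For comparison, 14 genes of mitosis had a median of 0.29 at 24 h, with Mki67 (0.59), Bub1 (1.0) and Cenpf (0.59) called higher (21.4%, against 12.2% of all compared genes). Length-adjusted, their median was -0.01 and 1 of the 14, Bub1 (0.99), was called higher, with 5.78% of all compared genes. For 24 h over 2 h, the median of the 14 was 0.27, and 0.26 length-adjusted. The medians of the 44 replication genes there were 0.16 and 0.15. In that comparison 13 of the 14 were above 0 and 4 were called higher (28.6%, against 3.98% of all compared genes). Length-adjusted, 2 of the 14 were called higher there, with 3.04% of all compared genes.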

How the data were processed

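Poly-A RNA-seq libraries, made with a kit that does not mark strand per the labels' protocols, were analysed from 5 samples of 1 cell line, 1 per time point. The authors deposited raw counts per gene. Reads were trimmed or mapped with tools that include HISAT2 and Trim Galore, on build GRCm38, per the submitters' processing notes; no source used here states the counting program, its annotation or its use of strand. The design text speaks of triplicates, and whether the libraries pool them is not stated.

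Counts were scaled with TMM factors (0.977 to 1.05; edgeR 4.0.16, limma 3.58.1, R 4.3.3) and log2 CPM values computed from them, 2 being the prior count; log2 ratios are differences of these. At 10 CPM a gene had 328 to 427 counts. Compared genes reached 10 CPM in 1 library or more. A call needed a 1.5-fold ratio and a 95% Clopper-Pearson interval, from scipy 1.17.1, that excluded a ratio of 1. No test between time points was possible with 1 library each. The slope test used filterByExpr and has 3 residual degrees of freedom per gene. Length adjustment subtracted a robust spline fit (5 degrees of freedom per term, statsmodels 0.14.6) of the log2 ratio on transcript length and GC content over all compared genes, from the longest APPRIS principal transcript in GENCODE's GRCm38 annotation, which held 99.91% of compared genes. The ratios with their call rule, the slope test and the length adjustment were tested on simulated counts.

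The genes, lists and the 1.5-fold limit were chosen with earlier results of these data known. All 44 genes are named. Full values are given for those called in any of 5 comparisons and for Mcm2, Mcm5, Pcna, Cdc6, Cdt1, Ccne1, Ccne2, E2f1, Rrm2, Tyms and Uhrf1. Of the other pathway genes, those called at 24 h over vehicle are named. Gins3, Rrm1 and some others are given in more detail after their values were seen. Alternatives were DESeq2 1.42.0 size factors and test, total counts, other filters, a 2-fold limit, a prior count of 0.5, the length adjustment, summed rows of a symbol, a linear time scale and leaving out each library.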

Additional observations from a re-analysis of the deposited data

How the results depend on the processing

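Among the 44 replication genes, a lower filter, no filter, a prior count of 0.5 and summed rows changed no median and no number called in the 5 comparisons, and no called gene changed sign under any alternative. With the 2-fold limit, the number called higher was 0 at 2, 6 and 12 h over vehicle, 1 at 24 h and 0 for 24 h over 2 h. With length adjustment, 0 were called higher at 2 h and 0 at 6 h, 1 was called lower at each of these times (Gins2), 6 were called higher at 24 h, and the 12 h median was 0.29. Scaling by total counts gave a median of 0.33 with 7 called higher at 24 h over vehicle (all compared genes: 0.10 and 16.3%), and 0.24 with 4 for 24 h over 2 h (0.05 and 5.9%), for which DESeq2 size factors gave 2 (4.1%). For the slope, 0 of the 44 rose without a filter and 0 on linear hours, where 0 of all genes rose or fell; 12 rose by DESeq2's test, with 11.3% of all genes. Leaving out a library gave 12 rising and 2 falling without vehicle (all genes: 8.01% and 7.67%), 9 rising without 2 h (9.31%), 2 without 6 h (1.54%), 0 without 12 h (0.0%) and 0 without 24 h (0.278%). The causes of these changes were not tested. No paired analysis was possible because each time point has 1 library. Counting error gave 24 h intervals of 0.025 to 0.18 to either side; replicate spread could not be measured.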
